A study of Mus musculus with 6 samples.

Results

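The nuclear-encoded subunits of the mitochondrial respiratory chain and ATP synthase were followed in mouse lens capsules across cataract surgery. Membership follows gene names alone, although the set was proposed with earlier results of these data known. The rule took protein-coding genes with symbols that begin with Ndufa, Ndufb, Ndufc, Ndufs, Ndufv, Uqcr, Cox4i, Cox5, Cox6, Cox7, Cox8 or Atp5, and added Sdha, Sdhb, Sdhc, Sdhd and Cyc1, while assembly factors named Ndufaf were left out. It found 87 of the 56940 genes listed in each library, with 36 in complex I, 4 in complex II, 9 in complex III, 20 in complex IV and 18 in complex V. Ndufa4 and Ndufa4l2 carry complex I names but are counted with complex IV, where the Ndufa4 protein is now placed. The 87 entries hold 86 symbols, because Atp5o stands under 2 Ensembl identifiers. In all, 81 of the 87 members passed edgeR's default filter on low counts and were tested.

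The respiratory chain of the inner mitochondrial membrane oxidises the products of the tricarboxylic acid cycle. Complex I takes electrons from NADH and complex II from succinate, complex III passes them from ubiquinol to cytochrome c, and complex IV hands them to oxygen. Complexes I, III and IV pump protons, and complex V, the ATP synthase, uses the resulting gradient to make ATP. Most subunits are made in the cytosol from nuclear genes and imported, while a small catalytic set is encoded in mitochondrial DNA. In the lens, mitochondria are kept in the epithelium and the young outer fibres and are cleared from mature fibre cells.

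All libraries came from wildtype C57BL/6 mice, and each was made from total RNA of 5 pooled lens capsules with the lens epithelial cells on them. The surgery takes the fibre cell mass out and leaves the capsule with its epithelium in place. Capsules at 0 h (3 libraries) were collected at surgery, and capsules at 5 days (3 libraries) were collected 5 days after it. Per the series description, the 0 h capsule of a mouse was its second operated eye, so these animals had already undergone surgery of the first eye 5 days before. The labels give neither the age nor the sex of the mice, and do not state whether pools share animals or whether the 3 libraries of a time were prepared from separate groups of mice. Mice may thus be shared between the times, but the main test treated the libraries as unpaired. P-values therefore measure the spread between these libraries only, which may be partly technical.

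Gene counts ranged from 6207387 to 9774343 per library. The 6 lens epithelium markers (Foxe3, Cdh1, Pax6, Pitx3, Aldh1a1 and Npnt) were counted in every library. Their summed level was 2954 to 3393 CPM (counts scaled to library size, here with edgeR's TMM factors) at 0 h and 1201 to 1690 CPM at 5 days, and 5 of the 6 fell while Pax6 rose. Markers of other cells moved between the times as well. All 5 tested lens fibre markers fell, from a summed 5111 to 7070 CPM to 209.3 to 742.4 CPM, with Birc7 at 0 in all 5 day libraries. The 8 photoreceptor markers all fell, from a summed 522.8 to 793.0 CPM to 34.53 to 98.87 CPM, and none was at 0 in any library. The 8 macrophage markers all rose, from a summed 14.37 to 31.59 CPM to 462.8 to 650.9 CPM, with Itgam at 0 in one 0 h library. The 6 smooth muscle and myofibroblast markers also all rose, from 217.7 to 243.9 CPM to 811.0 to 1451 CPM. Striated muscle markers summed to at most 4.714 CPM and erythroid markers to at most 4.144 CPM in any library. The part of these changes in the results below was not tested. In bulk samples, fewer cells of a type and less RNA per cell cannot be told apart.

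Most tested subunit transcripts fell by 5 days, and none was called higher. In edgeR's quasi-likelihood F test, adjusted by Benjamini-Hochberg across 14676 tested genes (threshold 0.05, the source of every adjusted p below), 51 of the 81 tested members fell (62.96%), 0 rose and 30 were not called. Over all tested genes 22.5% were called lower and 25.1% called higher. Among the 30 members not called, 0 had a positive fold change at an unadjusted p under 0.05, and DESeq2 and limma-voom each also called 0 members higher. The median log2 fold change (5 days over 0 h) was -0.46 over the 81 members, in a range from -1.70 to 0.44, beside -0.0063 over all tested genes. Fitted fold changes were negative for 73 of the 81. For 56 members every 5 day library lay below every 0 h library, beside 28.2% of all tested genes, and for 0 of the 81 tested members every 5 day library lay above, beside 29.9% of all tested genes. Only 4 members fell by a factor of 2 or more: Atp5s, Ndufb4, Ndufa5 and Ndufs5.

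Summed over all members, the level was 3893, 4593 and 4227 CPM in the 0 h libraries and 3112, 2971 and 2979 CPM in the 5 day libraries. The 5 day mean was 71.28% of the 0 h mean (4238 ± 350.1 against 3021 ± 79.36 CPM, SD, n = 3), and the groups did not overlap. As a share of raw gene counts, members held 0.375, 0.428 and 0.407% at 0 h against 0.315, 0.315 and 0.313% at 5 days. Of the 0 h libraries, the first gave the lowest value for 63 of the 81 members, and the number called lower was 52 without that library, 40 without the second 0 h library and 42 without the third. Scaling to total library size moved the median of all tested genes from -0.0063 to 0.12 and that of the members from -0.46 to -0.33, with 38 members called lower and 0 higher.

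**Figure D1:**
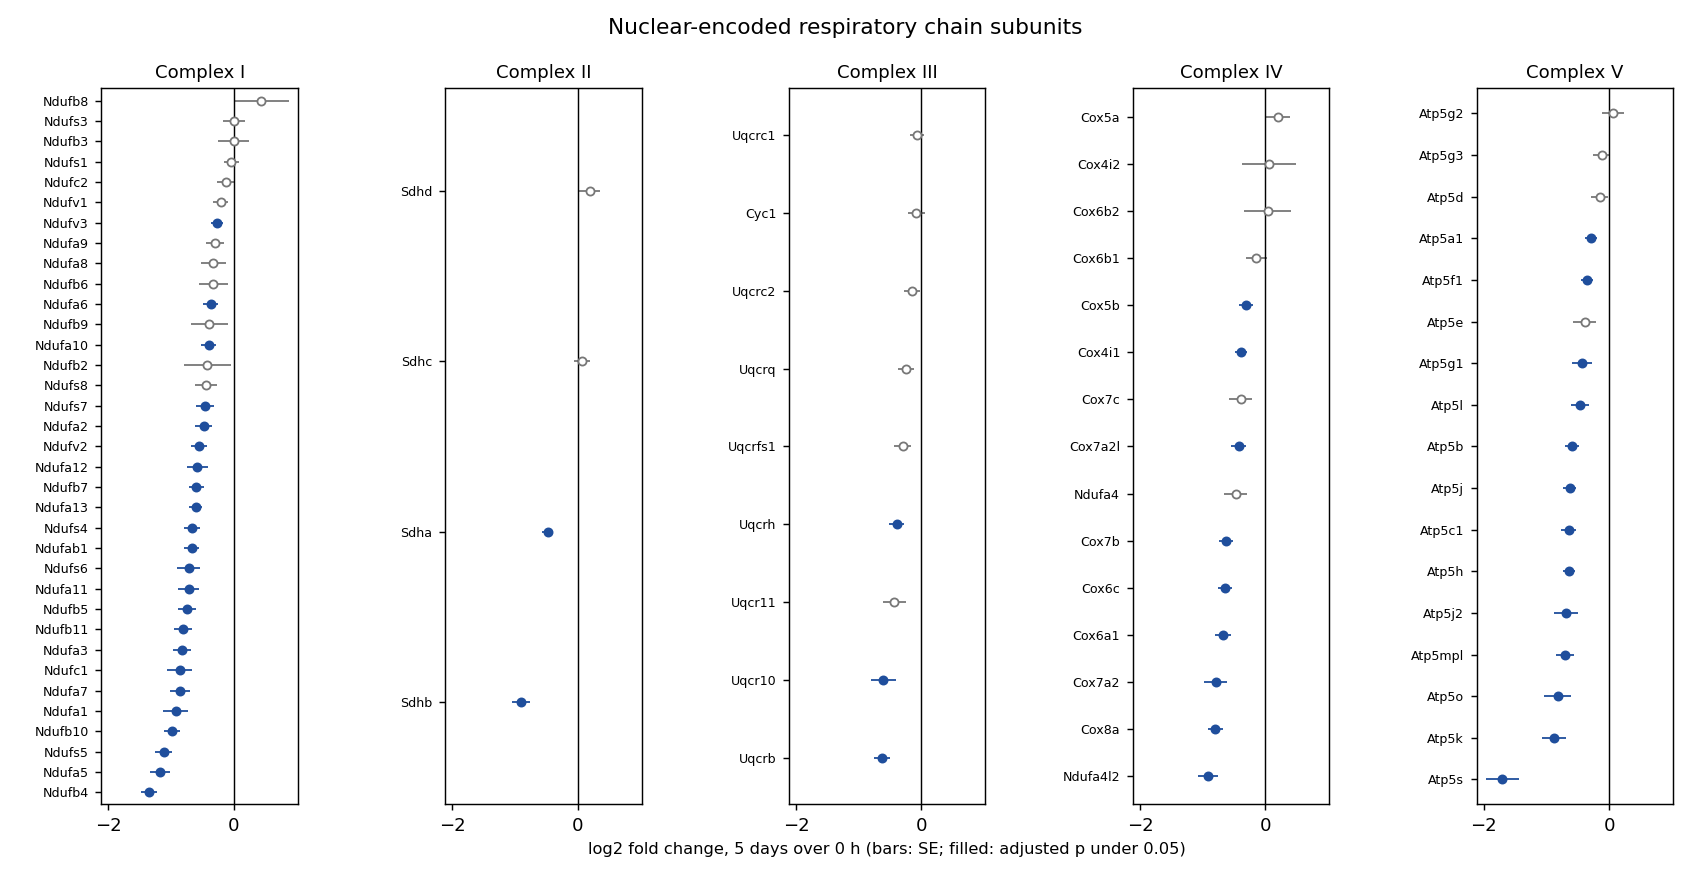
Fitted log2 fold change of the tested members, except 1 of complex I, 5 days over 0 h, by complex, with bars of 1 standard error; filled points have an adjusted p under 0.05. The filled points all lie left of 0, and Atp5s (-1.70) and Ndufb4 (-1.35) lie farthest left.

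Complex I, the entry point for NADH, had 24 of 36 members called lower (66.67%, beside 22.5% of all tested genes). The median of its log2 fold changes was -0.52. Summed complex I CPM were 1270, 1459 and 1349 at 0 h against 967.4, 909.1 and 895.0 at 5 days, so the 5 day mean was 67.96% of that at 0 h. Of the 7 nuclear-encoded core subunits, which carry the flavin and iron-sulfur clusters, 3 fell (42.86%, median -0.44). Of the 29 accessory subunits 21 fell (72.41%, median -0.61). The difference between these counts was not tested.

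Ndufb4, an accessory subunit of the membrane arm, had the largest fall in complex I. Its levels were 43.6, 49.7 and 40.7 CPM at 0 h against 16.4, 19.1 and 17.2 CPM at 5 days. It fell by 1.35 on the log2 scale (SE 0.13, adjusted p = 5.63e-06), and each 5 day value was below each 0 h value. Ndufa5, an accessory subunit of the matrix arm, read 30.4, 39.6 and 35.1 CPM at 0 h against 18.0, 14.2 and 14.3 CPM at 5 days. This is a log2 fold change of -1.18 (SE 0.16, adjusted p = 5.95e-05). Ndufs5, an accessory subunit on the intermembrane space side, went from 36.0, 45.4 and 42.6 CPM to 17.5, 20.5 and 19.2 CPM, with a log2 fold change of -1.12 (SE 0.14, adjusted p = 3.25e-05). In both genes the libraries of the times were fully separated. Next in size came Ndufb10, a membrane arm subunit, with 63.6, 70.2 and 67.6 CPM at 0 h against 40.6, 31.6 and 29.8 CPM at 5 days (log2 fold change -0.99, SE 0.13, adjusted p = 5.04e-05).

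Among the core subunits, Ndufv2, which with Ndufv1 forms the NADH-oxidising tip, fell by 0.56 (SE 0.13, adjusted p = 0.00299). Ndufs7, which carries the last iron-sulfur cluster before ubiquinone, fell by 0.46 (SE 0.14, adjusted p = 0.0169), but was not called without the third 0 h library (adjusted p = 0.0908) or with total library size (adjusted p = 0.0774). Ndufs1, the largest subunit of the complex, gave overlapping values of 40.9, 49.6 and 50.2 CPM at 0 h against 47.9, 42.2 and 47.2 CPM at 5 days. Its log2 fold change was -0.038 (95% interval -0.3 to 0.22, adjusted p = 0.819), and with total library size it was 0.092. Ndufs3 was at 0.0045 (-0.38 to 0.39), Ndufv1 at -0.21 (-0.48 to 0.06, adjusted p = 0.185) and Ndufs8 at -0.44 (-0.82 to -0.05, adjusted p = 0.0625), and none of them passed the test. The Ndufs8 libraries did not overlap (19.1, 26.6 and 18.8 CPM against 17.0, 16.2 and 14.7 CPM).

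Within complex I the proportions of transcripts shifted. Counts of Ndufs5 relative to Ndufs1 were 0.878, 0.916 and 0.848 at 0 h against 0.365, 0.485 and 0.406 at 5 days. Counts of Ndufb4 relative to Ndufs1 went from 1.07, 1.00 and 0.81 to 0.342, 0.452 and 0.364. Ratios within a library do not depend on its scaling, and the times did not overlap in either ratio. The pairs for these ratios, here and below, were chosen after their values were seen, so they carry no test. Of the remaining accessory subunits, 18 fell by 0.27 to 0.99 on the log2 scale and 8 did not pass the test. Ndufv3 fell least (-0.27, adjusted p = 0.0477) and lost its call in 11 of 15 other settings, among them without the second 0 h library (adjusted p = 0.174) and without the third (0.0848), and without the second (0.0913) or the third (0.0747) 5 day library. The member with the highest fold change, Ndufb8 (0.44, 95% interval -0.53 to 1.4), had only 1.21 to 2.63 CPM per library. Ndufb8, Ndufb2 and Ndufb9 share annotated exon bases with another gene on the same strand, and none of them was called. In complex V such an overlap also marks Atp5g2, not called, and the tested Atp5o entry, which was called lower (-0.82).

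Complex II, the succinate dehydrogenase that also serves the tricarboxylic acid cycle, had 2 of 4 members called lower (median log2 fold change -0.21). The 2 that fell are the catalytic subunits, and neither membrane anchor was called. Sdha, the flavoprotein that oxidises succinate, read 164, 184 and 176 CPM at 0 h against 127, 124 and 126 CPM at 5 days (log2 fold change -0.48, SE 0.09, adjusted p = 0.0009). Sdhb, the iron-sulfur subunit, read 43.9, 61.0 and 53.8 CPM at 0 h against 31.0, 29.0 and 25.5 CPM at 5 days, a log2 fold change of -0.90 (SE 0.14, adjusted p = 0.000233). For both genes the 5 day libraries lay wholly below those of 0 h.

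The anchors Sdhc and Sdhd hold the enzyme in the membrane and bind ubiquinone and haem. Sdhc was at 27.9, 29.8 and 27.2 CPM at 0 h against 31.5, 26.9 and 30.5 CPM at 5 days (log2 fold change 0.065, 95% interval -0.21 to 0.34, adjusted p = 0.705). Sdhd was at 18.9, 26.0 and 25.5 CPM at 0 h against 32.1, 24.1 and 24.5 CPM at 5 days (log2 fold change 0.19, 95% interval -0.18 to 0.56, adjusted p = 0.389). Both sets of libraries overlapped. Counts of Sdhb relative to Sdhd were 2.33, 2.35 and 2.11 at 0 h against 0.965, 1.20 and 1.04 at 5 days, while Sdhb relative to Sdhc went from 1.58, 2.04 and 1.98 to 0.985, 1.08 and 0.835. Neither ratio overlapped between the times.

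**Figure D2:**
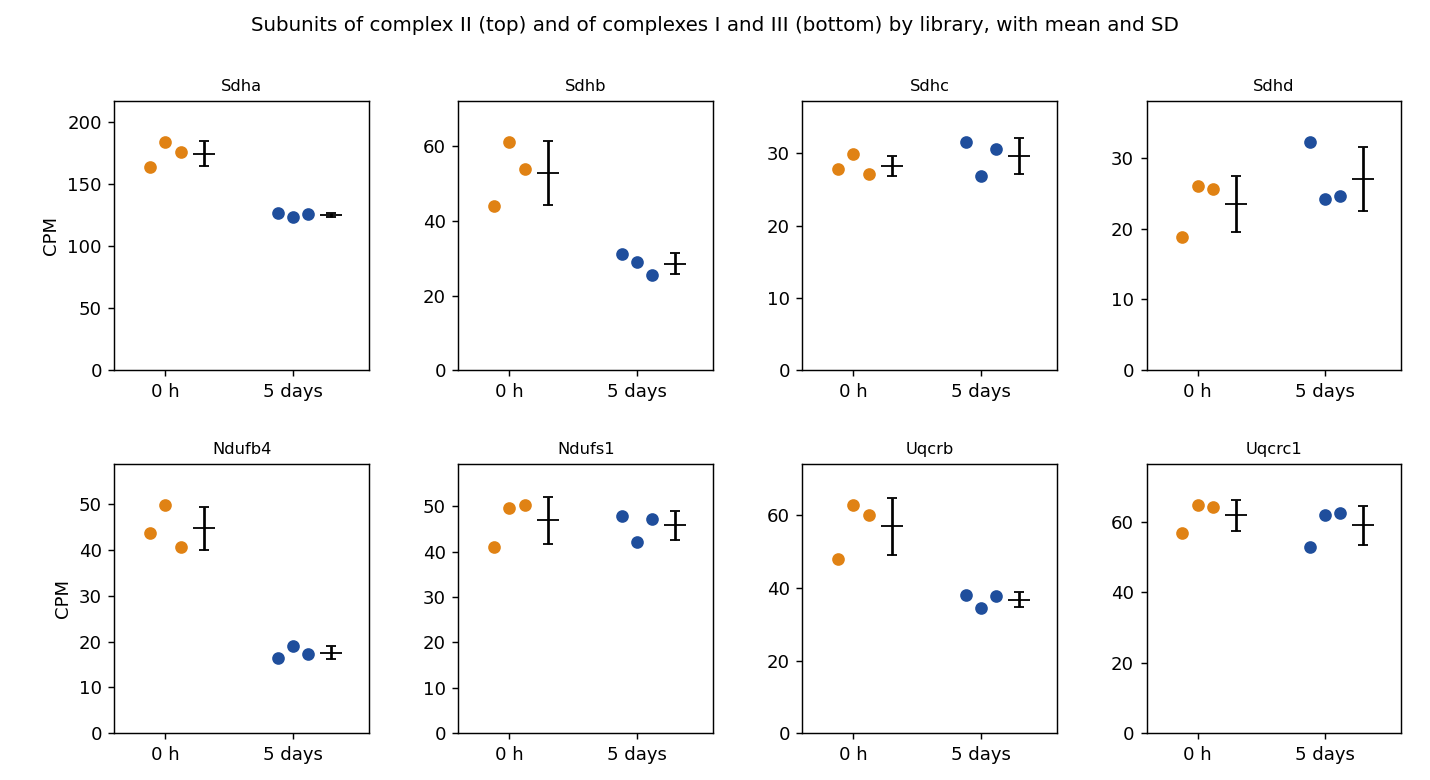
CPM of the 4 complex II genes (top) and of Ndufb4, Ndufs1, Uqcrb and Uqcrc1 (bottom) in each library (points), with the mean and SD of each time (n = 3). Sdha, Sdhb, Ndufb4 and Uqcrb are separated by time, while Sdhc, Sdhd, Ndufs1 and Uqcrc1 overlap.

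Complex III had 3 of 9 members called lower (33.33%, beside 22.5% of all tested genes), with a median log2 fold change of -0.30. Summed CPM were 342.9, 416.6 and 393.8 at 0 h against 315.7, 297.6 and 323.3 at 5 days, and the 5 day mean stood at 81.22% of 0 h. The 3 members that fell, Uqcrb, Uqcr10 and Uqcrh, are all small subunits without a redox centre. The count rested on single 0 h libraries, since it was 5 without the first, 1 without the second and 1 without the third, and it was 1 with total library size. Uqcrb, which sits near the ubiquinone pocket, read 47.9, 62.8 and 60.2 CPM at 0 h against 38.0, 34.4 and 37.8 CPM at 5 days (log2 fold change -0.63, SE 0.13, adjusted p = 0.00122). It kept its call in every other setting. Uqcr10 and Uqcrh fell by 0.61 and 0.39, and lost their calls without the second 0 h library (adjusted p = 0.11 and 0.0841) and without the third (0.056 and 0.054), Uqcr10 also without the first (0.0547) or second (0.0689) 5 day library.

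None of the 4 core complex III genes was called. Uqcrc1, a core scaffold protein and the member of this complex with the most counts over both times (at 0 h it was Uqcrh), was at 56.7, 64.6 and 64.1 CPM at 0 h against 52.7, 61.9 and 62.4 CPM at 5 days. Its log2 fold change was -0.066 (95% interval -0.3 to 0.17), and 0.066 with total library size. Cyc1, cytochrome c1, was at -0.079 (-0.37 to 0.21), and at 0.051 with total library size. The other core scaffold Uqcrc2 was at -0.15 (-0.43 to 0.14). Uqcrfs1, the Rieske iron-sulfur protein, was at -0.30 (-0.62 to 0.01, adjusted p = 0.103), and was called only without the first 0 h library (-0.42, adjusted p = 0.0424). Counts of Uqcrb relative to Uqcrc1 were 0.846, 0.971 and 0.939 at 0 h against 0.722, 0.556 and 0.605 at 5 days, without overlap.

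Complex IV, cytochrome c oxidase, had 9 of 15 tested members called lower (60.0%, beside 22.5% of all tested genes). Its median log2 fold change was -0.42. Its summed CPM were 621.3, 732.9 and 690.3 at 0 h against 490.0, 489.3 and 444.3 at 5 days, with the 5 day mean at 69.63%. Cox6c, a small membrane subunit with the most counts of the complex, read 151, 196 and 164 CPM at 0 h against 109, 118 and 101 CPM at 5 days (log2 fold change -0.64, SE 0.11, adjusted p = 0.000599). Its rank depends on the length used, since the 0 h mean per kilobase was 746.6 CPM for Cox6c and 357.2 CPM for Cox8a by coding sequence, but 47.72 CPM for Cox6c and 119.5 CPM for Cox8a by annotated exon. Cox8a, the smallest ubiquitous subunit, fell from 62.4, 82.9 and 76.5 CPM to 42.8, 41.9 and 42.5 CPM (log2 fold change -0.80, SE 0.12, adjusted p = 0.000144).

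Cox4i1 and Cox5a join the mitochondrially encoded Cox1 core together, early in assembly. Cox4i1 fell by 0.39 (95.5, 99.6 and 103 CPM at 0 h, 75.4, 81.6 and 70.2 CPM at 5 days, SE 0.10, adjusted p = 0.0052). Cox5a was at 12.3, 14.2 and 12.3 CPM at 0 h against 17.5, 12.4 and 15.0 CPM at 5 days, with a log2 fold change of 0.21 (95% interval -0.2 to 0.62, adjusted p = 0.391). Cox5b, a zinc-binding subunit, fell by 0.31 (adjusted p = 0.0354) but lost its call in 9 of 15 settings, with adjusted p-values of 0.053 to 0.102 without any one 0 h library and of 0.067 and 0.0864 without the second or the third 5 day library. Counts of Cox8a relative to Cox5a were 5.09, 5.86 and 6.23 at 0 h against 2.45, 3.37 and 2.83 at 5 days, and the times did not overlap.

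Complex V, the ATP synthase, had 13 of 17 tested members called lower (76.47%, beside 22.5% of all tested genes). Its median log2 fold change was -0.59. Summed CPM were 1404, 1684 and 1512 at 0 h against 1118, 1071 and 1110 at 5 days, with the 5 day mean at 71.73%. In the F1 head, the catalytic beta subunit Atp5b read 326, 401 and 343 CPM at 0 h against 246, 219 and 245 CPM at 5 days (log2 fold change -0.59, SE 0.11, adjusted p = 0.000722). The alpha subunit Atp5a1, with the highest mean of all members over the 6 libraries, read 339, 390 and 347 CPM at 0 h against 300, 286 and 295 CPM at 5 days (-0.29, SE 0.10, adjusted p = 0.0288). Its call was lost without the second (adjusted p = 0.128) or the third (0.0577) 0 h library and without the first (0.0677) or second (0.0685) 5 day library. The central stalk subunit gamma, Atp5c1, fell by 0.64 (SE 0.12, adjusted p = 0.000732). Alpha and beta occur in equal number in the enzyme, and their count ratio (Atp5b to Atp5a1) was 0.959, 1.03 and 0.988 at 0 h against 0.818, 0.767 and 0.83 at 5 days, without overlap.

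The 4 tested peripheral stalk genes, which brace the head against the membrane, all fell (median -0.64). The 4 small membrane subunits also all fell (median -0.70), beside 22.5% called lower over all tested genes. Atp5h, the stalk subunit d, fell from 138, 165 and 152 CPM to 102, 97.2 and 92.8 CPM (log2 fold change -0.64, SE 0.10, adjusted p = 0.000196). Atp5k, subunit e of the membrane part, fell from 23.2, 36.8 and 29.2 CPM to 13.7, 18.0 and 16.6 CPM (-0.88, SE 0.19, adjusted p = 0.00198). In both cases the times did not overlap. The calls of Atp5f1 and Atp5l were lost with 1 library left out, Atp5f1 without the second (adjusted p = 0.0576) or the third (0.0617) 0 h library or the first 5 day library (0.0517), and Atp5l without the third 0 h library (0.0674).

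Atp5s, known as coupling factor B, had the largest fall of all members. It read 9.97, 8.34 and 9.06 CPM at 0 h against 3.02, 2.76 and 2.63 CPM at 5 days (log2 fold change -1.70, SE 0.27, adjusted p = 0.000254). Its name places it in the set, but the protein is a factor associated with the synthase and not one of its canonical subunits. Among the canonical subunits, Atp5k had the largest fall.

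Several subunits are encoded by more than 1 gene, and the mix of these isoforms was compared as a share of counts, with no test. Subunit c, which forms the rotating ring, has 3 genes that yield the same mature protein. Atp5g1 held 27.9, 28.0 and 26.4% of the trio's counts at 0 h and 24.7, 21.4 and 21.3% at 5 days, without overlap. Per kilobase of annotated exon it held 13.19% (0 h mean) and 10.38% (5 day mean), again without overlap. Atp5g1 fell by 0.43 (adjusted p = 0.0456), a call that was lost in 11 of 15 settings, among them without the second (0.168) or the third (0.0829) 0 h library and without the second (0.123) or the third (0.0762) 5 day library. Atp5g2 was at 0.063 (95% interval -0.32 to 0.44), with a negative sign when the first or the third 0 h or the third 5 day library was left out, and Atp5g3 was at -0.12 (-0.39 to 0.16), or 0.016 with total library size. Their shares overlapped between times, at 25.17 ± 2.07 and 29.02 ± 3.31% for Atp5g2 and 47.39 ± 2.95 and 48.49 ± 4.19% for Atp5g3 (SD, n = 3).

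Ndufa4l2, a hypoxia-inducible relative of Ndufa4, was counted in every library of this tissue. It read 23.0, 26.1 and 25.5 CPM at 0 h against 11.8, 12.3 and 15.3 CPM at 5 days (log2 fold change -0.92, SE 0.16, adjusted p = 0.000566), the largest fall in complex IV. Ndufa4 read 15.1, 17.2 and 18.1 CPM at 0 h against 13.8, 12.2 and 10.6 CPM at 5 days (-0.47, 95% interval -0.86 to -0.07, adjusted p = 0.0501), and passed the test without the first 5 day library (adjusted p = 0.0423). Ndufa4l2 held 60.4, 60.25 and 58.5% of the pair's counts at 0 h and 46.0, 50.26 and 59.1% at 5 days, so the third 5 day library overlapped the 0 h range. Per kilobase of annotated exon the means were 65.15 and 57.44%.

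The other tissue-restricted isoforms were scarce or undetected. Cox4i2, the lung and oxygen-responsive form, held 1.87 ± 0.32% of the Cox4 pair at 0 h and 2.57 ± 0.38% at 5 days (SD, n = 3), with overlap. Cox6b2, a testis form, held 9.81 ± 1.46 and 10.82 ± 1.46% of the Cox6b pair, with overlap. Per kilobase of annotated exon the means were 3.62 and 4.93% for Cox4i2 and 6.5 and 7.2% for Cox6b2. Neither gene was called, with log2 fold changes of 0.058 for Cox4i2 and 0.037 for Cox6b2, and both signs turned with single libraries left out. The muscle forms Cox6a2, Cox7a1 and Cox8b did not pass the count filter, with at most 1, 3 and 10 counts in any library. Cox7b2, Cox8c and the second Atp5o entry (ENSMUSG00000116933) had no count in any library. Counts of isoform genes and of genes with processed pseudogene copies are uncertain where reads fit more than 1 place, and reads without a unique place made up 4.85 to 6.6% of each library.

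**Figure D3:**
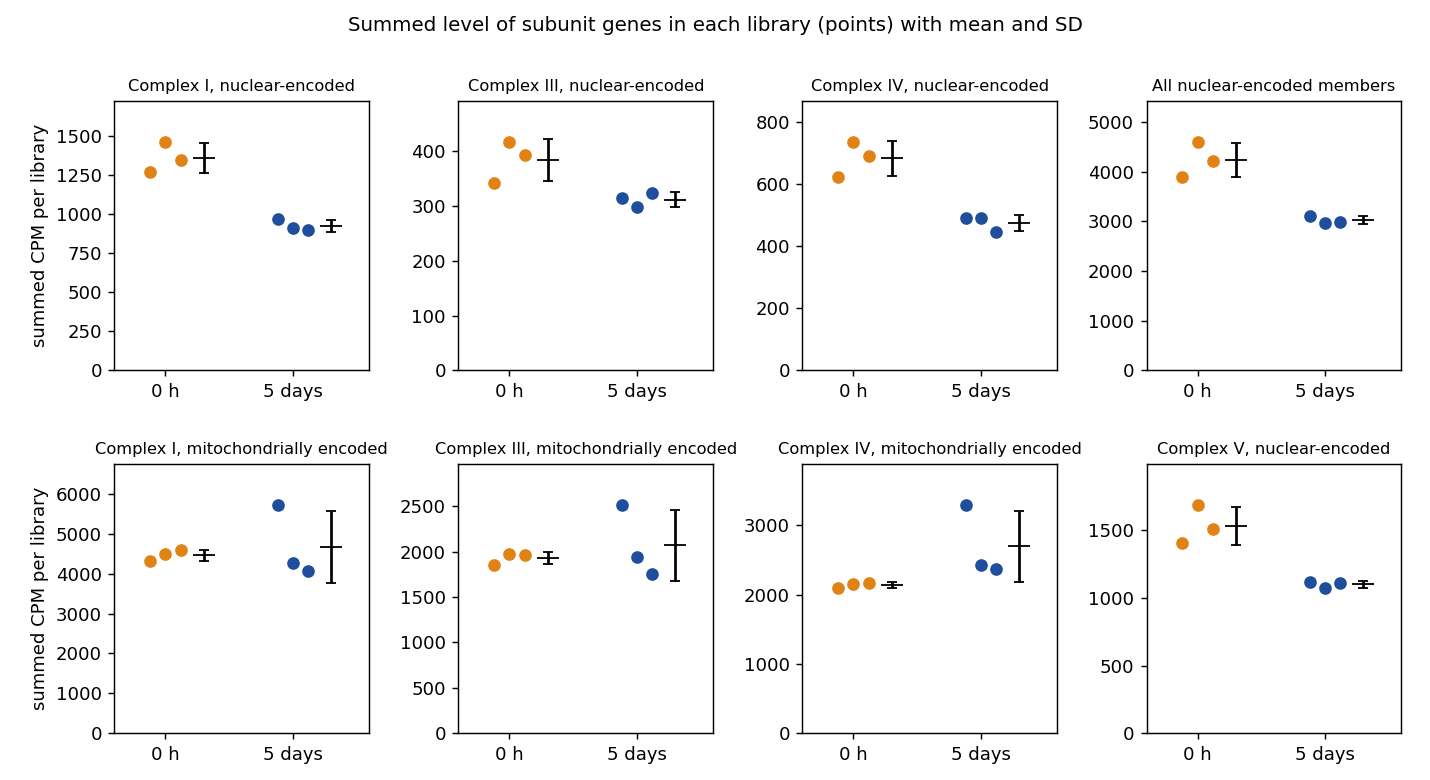
Summed CPM of nuclear-encoded and mitochondrially encoded subunit genes in each library (points; orange 0 h, blue 5 days), with mean and SD (n = 3). All 4 nuclear-encoded complexes shown, and the sum of all members, are lower in each 5 day library, while the mitochondrially encoded sums of complexes I and III overlap. The mitochondrially encoded sum of complex IV is almost all mt-Co1.

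The mitochondrially encoded subunits of the same complexes gave other values. Among the 10 tested of 13 genes the median log2 fold change was 0.19, with 1 called higher and 0 called lower. Both shares were below those of all tested genes, of which 25.1% were called higher and 22.5% lower. However, 1 of the mitochondrially encoded genes fell without the first 5 day library. The number called higher was 2 without the second or the third 5 day library. It was also 2 with total library size, no filter, DESeq2 or limma-voom. Summed CPM of complex I genes were 4322, 4490 and 4587 at 0 h against 5716, 4260 and 4064 at 5 days, and those of complex IV were 2093, 2149 and 2168 at 0 h against 3288, 2429 and 2372 at 5 days. The complex I sums overlapped, with the first 5 day library highest, and the complex IV sums did not. However, the complex IV sum was almost all mt-Co1. By 0 h and 5 day means, mt-Co2 was at 4.267 and 5.135 CPM and mt-Co3 at 0.5957 and 0.8916 CPM. At 1.512 and 2.256 CPM, mt-Atp6 of complex V also had few counts, and the median of 0.19 includes it and mt-Co2. Reads without a unique place are not in these counts, and their part in these low values was not tested. The gene called higher was mt-Nd6, the complex I subunit encoded on the light strand, with 150.3, 143.7 and 146.9 CPM at 0 h against 280.7, 211.2 and 230.2 CPM at 5 days (log2 fold change 0.71, SE 0.11, adjusted p = 0.000242). The most counted gene, mt-Co1, the catalytic core of complex IV, was not called at 2132 CPM (0 h mean) and 2690 CPM (5 day mean), but was called higher in 6 of 15 other settings: DESeq2 (adjusted p = 0.0218), limma-voom (0.0328), no filter (0.0229), total library size (0.0135), and without the second (0.0402) or the third (0.0106) 5 day library.

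Assembly factors, which build the complexes without staying in them, were mostly not called. The shares called lower for complexes I (20.0%) and IV (23.81%) were near the 22.5% of all tested genes. For complex I, 3 of 15 tested factors fell and 0 rose (median -0.16), with the largest fall in Ndufaf6 (-0.95, adjusted p = 0.0124, and 0.0524 without the first 0 h library). For complex II, 0 of 4 were called. For complex III, 2 of 6 fell and 1 rose: Uqcc2, a factor for cytochrome b, went from 39.55 to 21.6 CPM in the mean (-0.87, adjusted p = 0.00165), whereas Ttc19, a factor for the Rieske step, went from 15.2, 13.3 and 16.6 CPM to 30.6, 28.3 and 31.2 CPM (1.00, SE 0.15, adjusted p = 0.000129). For complex IV, 5 of 21 fell and 0 rose (median -0.30), a count that was 2 without the second or the third 0 h library and 3 without the first or the third 5 day library, with total library size, with DESeq2 or with either replicate block. Coa5 had the most counts of them and fell by 0.56 (adjusted p = 0.00196), and Cox20, a chaperone of the Cox2 protein, fell by 0.82 (adjusted p = 0.0186, and 0.0703, 0.0678 and 0.0622 without the second or the third 0 h or first 5 day library). For complex V, Tmem70 rose (0.61, adjusted p = 0.0359) and Tmem242 fell (-0.56, adjusted p = 0.0344), and each lost its call in 7 of 15 settings, including 5 of the 6 with a library left out.

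Of 18 tested electron carrier and ubiquinone synthesis genes, 3 were called higher (16.67%) and 4 lower (22.22%), no more than the 25.1% and 22.5% of all tested genes, and 2 were lower with total library size. Gpd2, which feeds electrons from glycerol phosphate to ubiquinone, rose from 7.95, 8.34 and 9.30 CPM to 25.5, 24.4 and 24.6 CPM (log2 fold change 1.54, SE 0.16, adjusted p = 8.82e-06). Coq8a, an atypical kinase of ubiquinone synthesis, fell by 1.27 (adjusted p = 0.0036), while its relative Coq8b rose by 1.14 (adjusted p = 0.000461). Of the tricarboxylic acid cycle genes, 6 of 17 fell (35.29%, beside 22.5% of all tested genes) and 2 rose (11.76%, beside 25.1%). The rises were 1 without the third 0 h library, and with total library size 5 fell and 4 rose. Idh2, the NADP-dependent isocitrate dehydrogenase, fell from 139, 161 and 147 CPM to 53.5, 60.5 and 58.0 CPM (-1.38, SE 0.10, adjusted p = 4.32e-07), and Suclg2 fell by 1.30 (adjusted p = 5.86e-07). Dlst, of the oxoglutarate dehydrogenase complex, rose by 0.43 (adjusted p = 0.00226), whereas Ogdh of the same complex fell by 0.50 (adjusted p = 0.000891).

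Of 23 genes for protein import, inner membrane shape and metabolite exchange, 8 fell (34.78%, beside 22.5% of all tested genes) and 3 rose (13.04%, beside 25.1%). The rises were 1 without the third 0 h library and 5 with total library size. The ADP/ATP carrier Slc25a4 fell from 323, 369 and 362 CPM to 236, 232 and 218 CPM (log2 fold change -0.62, SE 0.10, adjusted p = 0.000219), and the import channel subunit Timm17a fell by 0.66 (adjusted p = 0.00133). Hspd1, the matrix chaperonin, rose by 0.45 (adjusted p = 0.00159).

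Of 17 regulators of mitochondrial gene expression, 3 were called higher and 3 lower (17.65% each), below the 25.1% and 22.5% of all tested genes. With total library size 4 were higher and 1 lower, and the lower count was also 1 without the second or the third 0 h library or the first 5 day library. Ppargc1a, the coactivator PGC-1alpha, read 12.1, 14.8 and 12.8 CPM at 0 h against 5.73, 4.77 and 5.37 CPM at 5 days (log2 fold change -1.33, SE 0.22, adjusted p = 0.000352). Its relative Pprc1 rose by 0.48 (adjusted p = 0.00234). Polg, the polymerase that copies mitochondrial DNA, rose from 21.3, 22.5 and 26.0 CPM to 48.4, 53.0 and 52.1 CPM (1.14, SE 0.12, adjusted p = 1.03e-05). Yy1, the regulator with the highest mean over both times, was not called at 80.36 CPM (0 h mean) and 91.31 CPM (5 day mean), but was called higher with total library size (0.31, adjusted p = 0.0136).

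Promoters were searched for the cores of 2 activators that are known for their sites at respiratory genes. These were GCGCANGCG for the NRF1 protein and CCGGAAG for the ETS family, to which GABP belongs, and both strands were read. The windows ran from 250 bases before to 50 after the start of the RefSeq gene (GRCm38.p6), and 69 of the 86 member symbols had one. The NRF1 core was found in 20 of these 69 (29.0%), beside 9.6% of 17492 protein-coding genes and 7.0% of all 27025 genes with a window of the same length. The ETS core was found in 16 (23.2%), beside 12.9 and 9.9%. Both were present in 6 (8.7%), beside 2.1 and 1.5%. Members that fell held the NRF1 core in 14 of 43 windows (32.6%) and members not called in 6 of 23 (26.1%), while the ETS core was in 9 (20.9%) and 7 (30.4%). A match is a description of letters and no measure of binding. Among the genes of these activators, Nrf1 was called higher (log2 fold change 0.46, adjusted p = 0.018), a call lost in 5 of 15 settings. The GABP genes Gabpa (-0.12, adjusted p = 0.35) and Gabpb1 (0.25, adjusted p = 0.392) were not called.

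The matches before the start are shown for Ndufb4, which had the largest fall of complex I, and for the complex II pair Sdha, which fell, and Sdhd, which was not called. Capitals mark the core, with 10 flanking bases on each side, read 5′ to 3′ on the strand of the gene, and the capitals of the last line are the ETS core of the opposite strand.
Ndufb4, 191 bases before the start: gagaagcagtGCGCACGCGcagaatacgc
Ndufb4, 79 bases before: ccttgtgcgcGCGCAGGCGcacttcctga
Ndufb4, 22 bases before: cctcatatccGCGCAGGCGcagatgtgcg
Sdha, 98 bases before: cgtttacaggGCGCAGGCGcaccaccact
Sdha, 55 bases before: ggggcgtgttGCGCAGGCGcagaatcttc
Sdha, 10 bases before: gcgactcggtGCGCAAGCGcagtctgtcg
Sdhd, 79 bases before: tcgctggggtGCGCACGCGcggtggcagc
Sdhd, 46 bases before: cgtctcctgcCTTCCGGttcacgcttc

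On GRCm38.p6 the Ndufb4 stretches lie on the minus strand at chr16:37654541-37654569, chr16:37654429-37654457 and chr16:37654372-37654400. The second and the third of them fall in exon bases of Ndufb4 in GENCODE M21, whose start is farther upstream. The Sdha stretches, also on the minus strand, are at chr13:74350320-74350348, in an exon of the neighbouring gene Ccdc127, and at chr13:74350277-74350305 and chr13:74350232-74350260, in exon bases of Sdha. The Sdhd stretches on the minus strand are at chr9:50603910-50603938, in an exon of Timm8b, and at chr9:50603879-50603905, in no annotated exon. Both genes hold the NRF1 core, and Sdha was called lower while Sdhd was not called.

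Members with short coding sequences had the lower median. Of the 60 tested members with at most 600 coding bases, 39 fell (median -0.59), and of the 21 longer ones 12 fell (median -0.35). Among tested protein-coding genes other than the members, 27.94% of 1478 short genes fell (median -0.17) and 22.65% of 11317 longer ones (median 0.025). Across the 81 members, Spearman's rho between coding length and fold change was 0.31, beside 0.08 across 12876 protein-coding genes. This is a correlation across genes of the same libraries, which are not independent replicates, so it has no p. The 4 members that fell by a factor of 2 or more all have at most 600 coding bases, as do 60 of the 81 tested members. Of the 4, Atp5s lies at the cut with 600. Sdhc, Sdhd and Cox5a, which were not called, are also below the cut.

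**Figure D4:**
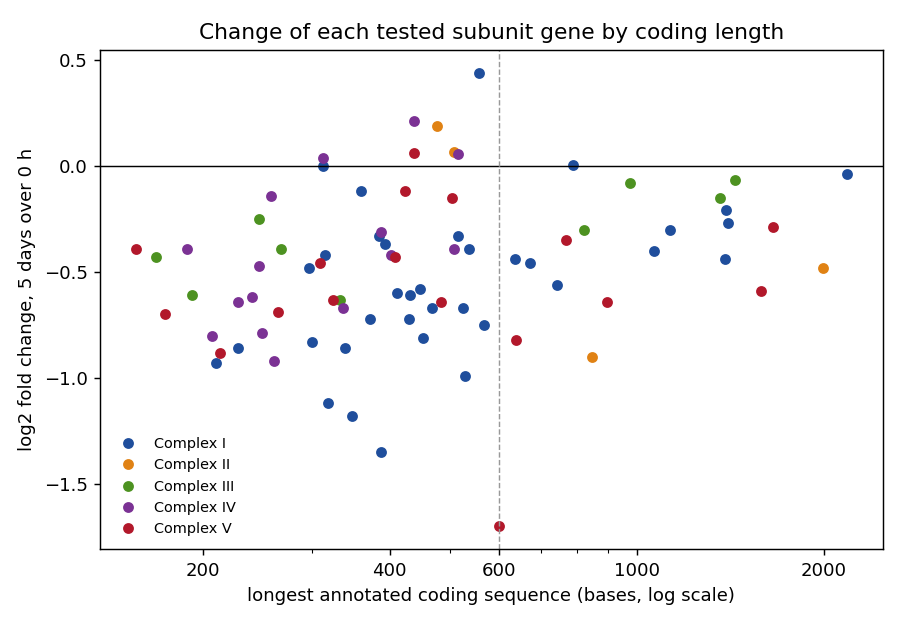
Log2 fold change of each of the 81 tested members (5 days over 0 h) against the length of its longest annotated coding sequence in bases (log axis), coloured by complex; the dashed line marks 600 bases. Falls past -1 occur only left of or at the line (4 members), and the longer members lie between -0.90 and 0.0045.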

How the data were processed

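Per the submitters' processing notes, reads were processed with HISAT2, HTSeq and edgeR on build GRCm39, and the authors deposited raw read counts for each Ensembl gene. Not given in the sources used here: tool versions, annotation release, strand setting. Overlapping and antisense genes therefore cannot be separated with certainty. Symbols, gene types and lengths came from GENCODE M21 (GRCm38) by Ensembl identifier, with 91.32% of 56940 genes matched. The 5 HTSeq summary entries (32.26 to 42.55% of reads) were left out. Counts were filtered (edgeR's default), TMM-scaled and tested by quasi-likelihood F tests in edgeR 4.0.16 under R 4.3.3. P-values of 14676 genes were adjusted by Benjamini-Hochberg (threshold 0.05, common biological coefficient of variation 0.156). The SE is the log2 fold change divided by the square root of the F statistic, and 95% intervals use the test's degrees of freedom. The script was tested on simulated counts. With 3 libraries per time, an exact permutation test of a single value cannot go below p = 0.1, so sums and shares carry no test.

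The named genes are members changed by a log2 fold change of 1 or more, the extreme and most counted members of each complex and list, isoform genes and core subunits. One gene that this rule names is counted in all totals but not reported here. Others given as examples (among them Ndufs3, Ndufb8, Ndufv3, Atp5h and Coq8b) were chosen after their values were seen. Members and lists were chosen with earlier results of these data known. The alternatives were other scalings, filters and tests (DESeq2 1.42.0, limma-voom in limma 3.58.1), replicate blocks and each library left out. A count of members without annotated exon overlap was added after seeing the data. Figures used Python 3.11.15 with pandas 2.3.3 and matplotlib 3.10.9.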

Additional observations from a re-analysis of the deposited data

How the results depend on the processing

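The number of members called lower was 51 and lay between 38 and 53 in the 15 other settings, with 0 called higher in each of them. It was 49 with DESeq2 size factors, 38 with total library size, 49 with scaling factors computed without crystallin, mitochondrially encoded and ribosomal RNA genes, 47 without a filter, 52 with the stricter filter, 47 with DESeq2, 53 with limma-voom, and 40 to 52 with 1 library left out (40 without the second 0 h library). The members' median moved from -0.46 to -0.33 with total library size, which raised the median of all tested genes to 0.12, and was -0.45 to -0.53 with 1 library left out. Of the 51 members called lower, 37 were called in every setting and 0 changed sign, and 6 of the 30 not called were called lower in at least 1 setting. Of members without an annotated exon overlap, 63.46% were called lower, beside 62.96% of all tested members.

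Signs turned for 11 members, none of them called. With total library size the log2 fold changes were 0.13 for Ndufb3, 0.0035 for Ndufc2, 0.092 for Ndufs1, 0.051 for Cyc1, 0.066 for Uqcrc1, 0.016 for Atp5g3 and 0.068 for the assembly factor Sdhaf2. Ndufb3 was at 0.0064 with DESeq2 size factors, 0.0086 with scaling without crystallin, mitochondrially encoded and ribosomal RNA genes, and 0.0069 with DESeq2. Ndufs3 was at -0.0015 with the stricter filter. With 1 library left out, values ranged as follows: Atp5g2 -0.042 to 0.20, Cox4i2 -0.094 to 0.22, Cox6b1 -0.26 to 0.0045, Cox6b2 -0.05 to 0.13, Ndufb3 -0.10 to 0.16, Ndufs1 -0.13 to 0.024, Ndufs3 -0.15 to 0.10, Uqcrc1 -0.13 to 0.0026 and Sdhaf2 -0.22 to 0.14. The cause was not tested.

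Replicate numbers gave no sign of pairing. Deviations of same-numbered libraries correlated at 0.039, -0.09 and 0.043, and those of differently numbered libraries at -0.095 to 0.065. Deviations from means of only 3 libraries cannot show whether pools share animals. With the title number as a replicate block, 49 members were called lower, the median was -0.45 and Ndufs3 was at -0.00065. With a block by the library name number, which leaves out the third 5 day library, 42 were called lower, the median was -0.46, Ndufb3 was at 0.22 and Ndufs3 at -0.14. Neither block called a member higher.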
